A study of Mus musculus with 18 samples.

Results

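The genes described here encode the machinery that copies the genome in S phase, from the proteins that license replication origins to the enzymes that supply deoxynucleotides. They are a list of 39 genes chosen by name, with earlier results of these data known. Each was read from the array row that carries its symbol alone. Of the 39 genes, 38 had such a row, out of 22180 genes measured. *Rfc4*, a subunit of the clamp loader, shared its row with another gene and was left out. For the 4 members with more than 1 row, the row of highest mean level stood for the gene. All 38 members had a mean level above that of the median row of the array.

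Transcripts were measured on Affymetrix Mouse Gene 2.0ST arrays in thymocytes of mouse fetuses at embryonic day 18.5 on a C57BL/6 background. The fetuses were WT, *Gli3*+/- or *Gli3*-/-, where *Gli3* encodes a transcription factor of the Hedgehog pathway and both mutant genotypes carry the mutation in every cell, thymic stroma included. From every genotype, double positive (DP) thymocytes, which carry both CD4 and CD8, were sorted into those without and those with CD69 on the surface (CD69- DP and CD69+ DP), and CD4+CD8- thymocytes were sorted as SP4 whatever their CD69. The 18 arrays made 9 groups of genotype and population, with a replicate 1 and a replicate 2 in each, which gave 6 arrays per population.

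An origin of replication is licensed in G1 when the origin recognition complex, with *Cdc6* and *Cdt1*, loads the MCM helicase onto DNA, and it fires in S phase when kinases, *Cdc45* and the GINS complex turn that ring into a moving helicase. Primase and the DNA polymerases then copy both strands behind it, held to the template by the PCNA clamp, while RPA covers the single strands that are exposed. In the thymus, the blast cells among DP thymocytes divide after selection for the beta chain of the T-cell receptor, most DP cells then rest, and CD69 appears on the surface of DP cells that have received the signal for positive selection on the way to SP4. Many of the genes of replication are textbook targets of E2F transcription factors, which Rb family proteins hold in check in resting cells.

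The replication genes were low in CD69+ DP cells and high in the populations on either side of them. Going from CD69- DP to CD69+ DP, with the 3 genotypes averaged, all 38 members had a lower mean, with a median log2 difference of -0.77 and a range from -1.49 for *Gmnn* to -0.12 for *Rpa1*. Of these, 28 fell at an adjusted p under 0.05 (limma, Benjamini-Hochberg over all 22180 genes), and none rose. Of all genes tested, 4.73% fell at that threshold, and the median log2 difference of all genes was 0.01. The count of 28 was lower when replicate 1 of CD69+ DP or replicate 2 of CD69- DP was left out, in any genotype. The share of all genes was not taken in those fits. With each of the 12 arrays left out in turn, the median stayed between -0.89 and -0.61.

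Going from CD69+ DP to SP4, all 38 members had a higher mean, with a median log2 difference of 0.90 and a range from 0.18 for *Rpa1* to 1.43 for *Pole*. At the same threshold 31 members rose and none fell, where 4.41% of all genes tested rose. These 2 comparisons share the CD69+ DP arrays, so they are not independent of each other. Across the whole interval, from CD69- DP to SP4, 30 members had a higher and 8 a lower mean, with a median of 0.12 and a range from -0.37 for *Rrm2* to 0.51 for *Pole2*. In that comparison 1 member, *Pole2*, rose (adjusted p = 0.0328) and none fell, where 5.94% of all genes rose and 3.84% fell. In sorted bulk cells, fewer cells in S phase and less replication RNA in each cell cannot be told apart.

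**Figure D1:**
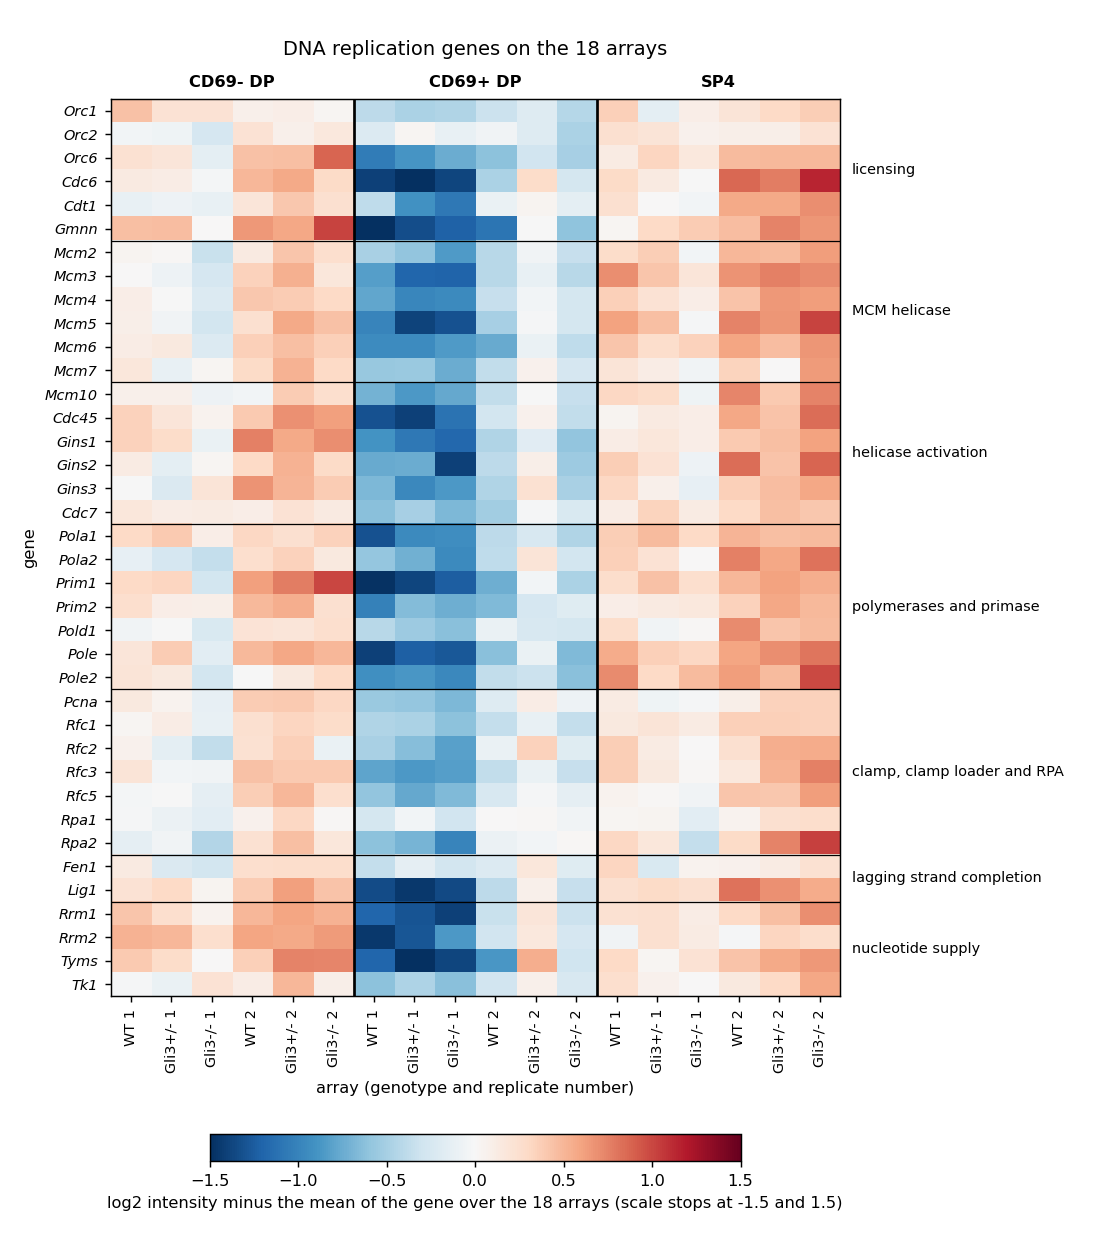
Each column is 1 of the 18 arrays, grouped by population and named by genotype and replicate number, and each row is 1 of the 38 genes, grouped by role. Colour gives log2 intensity minus the mean of that gene over the 18 arrays, from -1.5 (blue) to 1.5 (red). The 6 CD69+ DP columns are mostly blue, replicate 1 more than replicate 2. The CD69- DP and SP4 columns are mostly red, except the CD69- DP column of Gli3-/- replicate 1, whose median of -0.109 lies on the blue side.

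The separation between arrays was not complete for every member. The 6 CD69+ DP arrays all lay below the 6 CD69- DP arrays for 10 members (*Gmnn*, *Orc1*, *Orc6*, *Gins1*, *Cdc7*, *Pola1*, *Prim2*, *Pole2*, *Rfc3* and *Rrm2*), as they did for 3.26% of all genes. All 6 SP4 arrays lay above the 6 CD69+ DP arrays for 20 members, among them *Mcm2* to *Mcm6*, *Pola1*, *Prim1*, *Prim2*, *Pold1*, *Pole* and *Pole2*, against 3.08% of all genes. For 0 members did SP4 and CD69- DP arrays separate in either direction, against 4.13% of all genes with SP4 higher and 2.7% with SP4 lower. When each CD69+ DP array was set against the CD69- DP array that carries the same label (WT1, WT2 and so on), 35 of 38 members were lower in all 6 pairs, against 9.96% of all genes. In the same way 36 of 38 were higher in SP4 than in CD69+ DP in all 6 pairs, against 10.1% of all genes.

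The licensing genes gave the member with the largest fall. Geminin (*Gmnn*), which binds *Cdt1* and blocks licensing once S phase has begun, had an intensity of 394 at the lowest, 567 at the median and 796 at the highest of the 6 CD69- DP arrays. The same 3 values were 140, 177 and 390 in CD69+ DP, and 401, 528 and 657 in SP4. No CD69+ DP array reached the range of either neighbour. *Gmnn* fell by 1.49 on the log2 scale (SE 0.22, adjusted p = 0.00121) into CD69+ DP and rose by 1.39 (SE 0.22, adjusted p = 0.00246) into SP4. *Orc6*, of the origin recognition complex, fell by 1.02 (adjusted p = 0.00223), and *Orc1*, its largest subunit, fell by 0.55 (adjusted p = 0.00369).

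*Cdc6*, which loads the helicase together with the origin recognition complex, varied more between arrays. Its lowest, median and highest intensities were 240, 285 and 364 in CD69- DP, then 85.7, 136 and 296 in CD69+ DP, and 245, 359 and 543 in SP4. The highest CD69+ DP array lay within both other ranges, and the log2 difference into CD69+ DP of -1.05 (SE 0.31) had an adjusted p of 0.0558, while the rise into SP4 of 1.32 passed (adjusted p = 0.0216). *Cdt1*, its partner in loading, rose into SP4 (0.77, adjusted p = 0.0407). *Orc2* moved least in this role, with medians of 222, 197 and 242 in the 3 populations and overlapping arrays in CD69- DP and CD69+ DP (log2 difference -0.18, adjusted p = 0.333).

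Each of the 6 subunits of the MCM helicase, the ring that unwinds DNA, fell into CD69+ DP and rose into SP4. *Mcm5* had intensities of 245, 334 and 440 (lowest, median, highest) in CD69- DP, then 114, 180 and 294 in CD69+ DP, and 294, 463 and 601 in SP4. Its SP4 arrays just cleared the highest CD69+ DP array. The fall was 0.91 on the log2 scale (SE 0.26, adjusted p = 0.0456) and the rise 1.32 (SE 0.26, adjusted p = 0.00785). *Mcm2* fell least of the 6, by 0.54 (SE 0.15, adjusted p = 0.0379), with medians of 428, 295 and 542. All 6 had a higher mean in SP4 than in CD69- DP, from 0.00 for *Mcm7* to 0.45 for *Mcm3*, and none of the 6 passed the test of that difference.

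All 6 genes of helicase activation also fell and then rose. *Gins1*, a subunit of the GINS complex, had intensities of 225, 331 and 406 in CD69- DP, then 106, 145 and 215 in CD69+ DP, and 257, 293 and 365 in SP4. Its CD69+ DP arrays lay below every array of the other populations, with a fall of 1.15 (SE 0.19, adjusted p = 0.00223) and a rise of 1.03 (SE 0.19, adjusted p = 0.00547). *Cdc45*, which joins GINS and MCM in the active helicase, fell by 1.11 (adjusted p = 0.0172), and *Gins2*, *Gins3* and *Mcm10* fell by between 0.62 and 0.81. *Cdc7*, the kinase that phosphorylates MCM to fire origins, fell least, by 0.57 (SE 0.10, adjusted p = 0.00327), with medians of 293, 188 and 334. It was also among the members with separate ranges, since its CD69- DP arrays spanned only 287 to 313 and the highest CD69+ DP array read 264.

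Among the polymerases and primase, 5 of 7 members fell into CD69+ DP and all 7 rose into SP4. *Prim1*, the catalytic subunit of primase, had intensities of 348, 586 and 847 in CD69- DP, then 151, 216 and 408 in CD69+ DP, and 503, 583 and 639 in SP4. The SP4 arrays all lay above CD69+ DP, whereas the lowest CD69- DP array fell below the highest CD69+ DP array. The fall was 1.35 (SE 0.25, adjusted p = 0.00509) and the rise 1.33 (SE 0.25, adjusted p = 0.00696). *Pole*, the catalytic subunit of the leading strand polymerase, had the largest rise of all members, 1.43 (SE 0.20, adjusted p = 0.00107), from a median of 114 in CD69+ DP to 320 in SP4.

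*Pole2*, the second subunit of that polymerase, was the only member called higher in SP4 than in CD69- DP in the fit without a block. Its intensities were 133, 179 and 199 in CD69- DP, then 82.4, 96.2 and 129 in CD69+ DP, and 198, 236 and 320 in SP4. The lowest SP4 array fell just inside the CD69- DP range. *Pole2* rose by 1.27 into SP4 (SE 0.14, adjusted p = 2.24e-04), and its difference between SP4 and CD69- DP was 0.51 (SE 0.14, 95% interval 0.21 to 0.81). The count of 1 member called in that comparison stayed at 1 without *Gli3*-/- CD69- DP replicate 2 or *Gli3*-/- SP4 replicate 1 and went to 0 without any of the other 10 arrays. The members of this role that did not pass the fall were *Pola2*, the regulatory subunit of polymerase alpha (-0.45, adjusted p = 0.218), and *Pold1*, the catalytic subunit of the lagging strand polymerase (-0.42, SE 0.14, adjusted p = 0.0771). *Pold1* had medians of 297, 221 and 354 in the 3 populations, and its SP4 arrays all lay above CD69+ DP.

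The clamp, clamp loader and RPA genes moved less, with 3 of 7 falling into CD69+ DP and 3 of 7 rising into SP4. *Rfc3*, a clamp loader subunit, had intensities of 210, 266 and 295 in CD69- DP, then 119, 147 and 202 in CD69+ DP, and 220, 261 and 365 in SP4. Its ranges in CD69+ DP were apart from both others, with a fall of 0.77 (SE 0.17, adjusted p = 0.0129) and a rise of 0.88 (SE 0.17, adjusted p = 0.00739). *Pcna*, the sliding clamp itself, fell by 0.52 (adjusted p = 0.0484) and had a log2 difference of 0.47 into SP4 (adjusted p = 0.0882). *Rpa1*, the large subunit of the protein that covers single strands, had medians of 447, 433 and 460 and overlapping arrays throughout, with log2 differences of -0.12 (SE 0.10, adjusted p = 0.555) and 0.18 (SE 0.10, adjusted p = 0.337).

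For the completion of lagging strands, both genes were measured and they differed in size of change. DNA ligase I (*Lig1*), which seals the fragments, had intensities of 602, 742 and 898 in CD69- DP, then 215, 339 and 615 in CD69+ DP, and 689, 789 and 1026 in SP4. It fell by 1.13 (SE 0.25, adjusted p = 0.0141) and rose by 1.27 (SE 0.25, adjusted p = 0.00886). *Fen1*, the nuclease that trims the flaps before ligation, had medians of 186, 142 and 173 and overlapping ranges, with log2 differences of -0.23 (SE 0.12, adjusted p = 0.295) and 0.26 (SE 0.12, adjusted p = 0.243).

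All 4 genes of nucleotide supply fell into CD69+ DP. *Tyms*, thymidylate synthase, had intensities of 243, 313 and 405 in CD69- DP, then 83.7, 118 and 350 in CD69+ DP, and 245, 310 and 379 in SP4. A single CD69+ DP array, that of *Gli3*+/- replicate 2, read 350, and the other 5 lay at or under 196. *Tyms* fell by 1.21 (SE 0.29, adjusted p = 0.0211) and rose by 1.15 (SE 0.29, adjusted p = 0.031). The ribonucleotide reductase subunits *Rrm1* and *Rrm2*, which make deoxynucleotides from ribonucleotides, fell by 1.12 (adjusted p = 0.0132) and 1.17 (adjusted p = 0.0058). *Rrm1* rose into SP4 by 1.07 (adjusted p = 0.02), and the difference of 0.81 for *Rrm2* had an adjusted p of 0.0502. *Tk1*, the thymidine kinase of the salvage route, fell by 0.50 (SE 0.14, adjusted p = 0.0395) and rose by 0.58 (adjusted p = 0.0207).

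**Figure D2:**
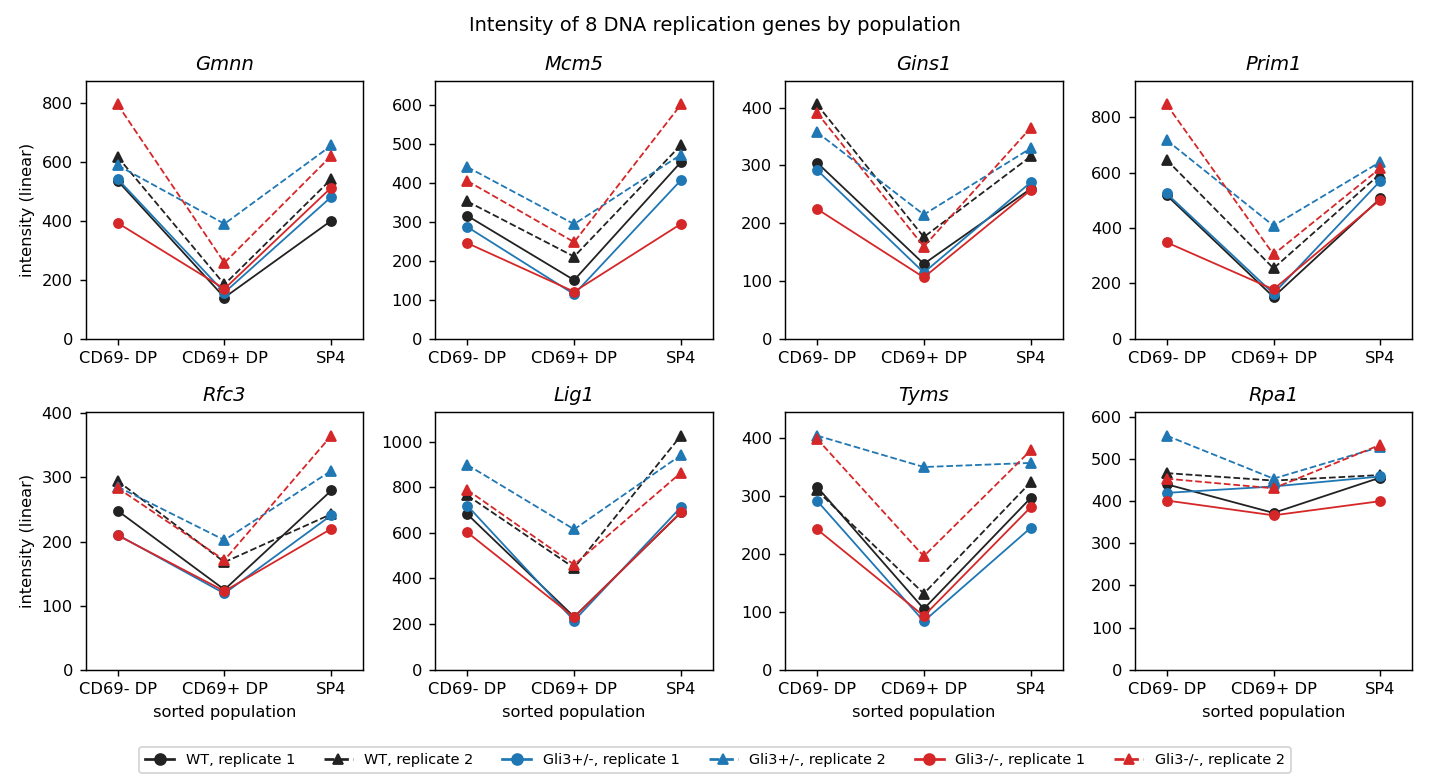
Intensity on a linear axis from 0 in the 3 populations for Rpa1 and for the member of each role with the largest fall, with a line for each genotype and replicate number (circles and solid lines, replicate 1; triangles and dashed lines, replicate 2). Most lines form a V with its low point at CD69+ DP, the Gli3+/- replicate 2 line in Tyms stays at 350 there, and Rpa1 stays between 366 and 556 on every array.

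The 4 members with a further row were read again from it. The other row of *Rrm2* gave log2 differences of -1.58 into CD69+ DP and 1.17 into SP4, and that of *Fen1* gave -0.23 and 0.47. For *Pole* the other row was nearly flat, at -0.25 and 0.17, against -1.21 and 1.43 on the row used. *Rpa1* gave -0.42 and 0.33. Between SP4 and CD69- DP, the rows of *Pole* (0.22 and -0.08) and of *Rpa1* (0.05 and -0.09) differed in sign.

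Promoters were examined because the members moved together and E2F sites are a known feature of such genes. RefSeq promoter windows (GRCm38.p6, from 250 bases before to 50 after the start) were matched for 31 of the 38 members, with 37 windows. *Gmnn*, *Mcm4*, *Gins1*, *Gins2*, *Prim2*, *Pole* and *Rfc2* were not matched. The E2F letters searched were TTTGGCGC, TTTCCCGC, TTTGCCGC and TTTCGCGC on both strands, and 13 of the 31 members (41.9%) held a match, against 3.26% of the 16990 genes tested that had a window. A CCAAT box (CCAAT, both strands) was present for 64.5% of members and 41.6% of genes, a GC box (GGGCGG, both strands) for 71.0% and 49.5%, and the cell cycle homology region (TTTGAA or TTCGAA, both strands) for 22.6% and 19.4%.

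The 5 windows below belong to the members with the largest fall into CD69+ DP that held an E2F match in 5 different roles, and the capitals mark the match on either strand. *Lig1* has 3 windows, of which the window with a match is shown.
Lig1 promoter, chr7:13278576-13278875, plus strand: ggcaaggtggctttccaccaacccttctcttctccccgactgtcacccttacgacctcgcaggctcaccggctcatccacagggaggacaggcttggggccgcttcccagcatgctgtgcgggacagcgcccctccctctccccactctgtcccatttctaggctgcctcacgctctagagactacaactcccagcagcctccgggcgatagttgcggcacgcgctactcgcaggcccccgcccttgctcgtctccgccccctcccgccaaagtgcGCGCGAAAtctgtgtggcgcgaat
Cdc6 promoter, chr11:98907901-98908200, plus strand: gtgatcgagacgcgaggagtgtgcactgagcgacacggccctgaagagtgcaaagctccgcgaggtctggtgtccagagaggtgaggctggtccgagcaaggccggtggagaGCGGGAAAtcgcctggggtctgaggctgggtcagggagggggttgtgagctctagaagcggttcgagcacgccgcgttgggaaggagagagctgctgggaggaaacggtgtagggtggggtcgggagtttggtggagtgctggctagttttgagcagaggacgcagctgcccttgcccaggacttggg
Pola1 promoter, chrX:93632106-93632405, minus strand: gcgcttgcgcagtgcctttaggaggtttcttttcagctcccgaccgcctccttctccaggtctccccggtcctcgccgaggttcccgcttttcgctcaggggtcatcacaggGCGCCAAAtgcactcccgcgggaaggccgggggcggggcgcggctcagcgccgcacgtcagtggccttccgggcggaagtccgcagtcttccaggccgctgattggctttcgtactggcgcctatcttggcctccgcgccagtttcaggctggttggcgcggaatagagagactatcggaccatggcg
Mcm5 promoter, chr8:75109259-75109558, plus strand: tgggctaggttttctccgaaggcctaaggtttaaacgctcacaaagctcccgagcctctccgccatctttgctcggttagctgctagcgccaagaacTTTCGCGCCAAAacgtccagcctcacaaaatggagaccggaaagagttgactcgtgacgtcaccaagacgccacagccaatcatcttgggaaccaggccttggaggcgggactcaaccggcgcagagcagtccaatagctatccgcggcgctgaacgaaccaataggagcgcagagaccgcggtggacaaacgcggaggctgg
Gins3 promoter, chr8:95633309-95633608, plus strand: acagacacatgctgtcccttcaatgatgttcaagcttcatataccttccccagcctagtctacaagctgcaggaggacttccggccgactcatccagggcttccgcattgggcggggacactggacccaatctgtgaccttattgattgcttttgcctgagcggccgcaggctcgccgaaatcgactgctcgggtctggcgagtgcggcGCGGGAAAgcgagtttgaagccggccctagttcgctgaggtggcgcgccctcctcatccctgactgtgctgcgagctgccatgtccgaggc

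In the *Mcm5* window 2 matches overlap (starting at bases 98 and 102, counted from 1 at the 5′ end), and they are read as a single capital run. The match of *Lig1* starts at base 277, within the 50 bases that follow the start, and those of *Cdc6* and *Pola1* start at base 113 and that of *Gins3* at base 210. The 13 members with a match had a median log2 difference into CD69+ DP of -0.79, from -1.13 to -0.42, and the 18 without had a median of -0.55, from -1.35 to -0.12. The ranges overlap, no test was made, and *Prim1*, with the second largest fall of all members, held no match to these letters in its window.

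**Figure D3:**
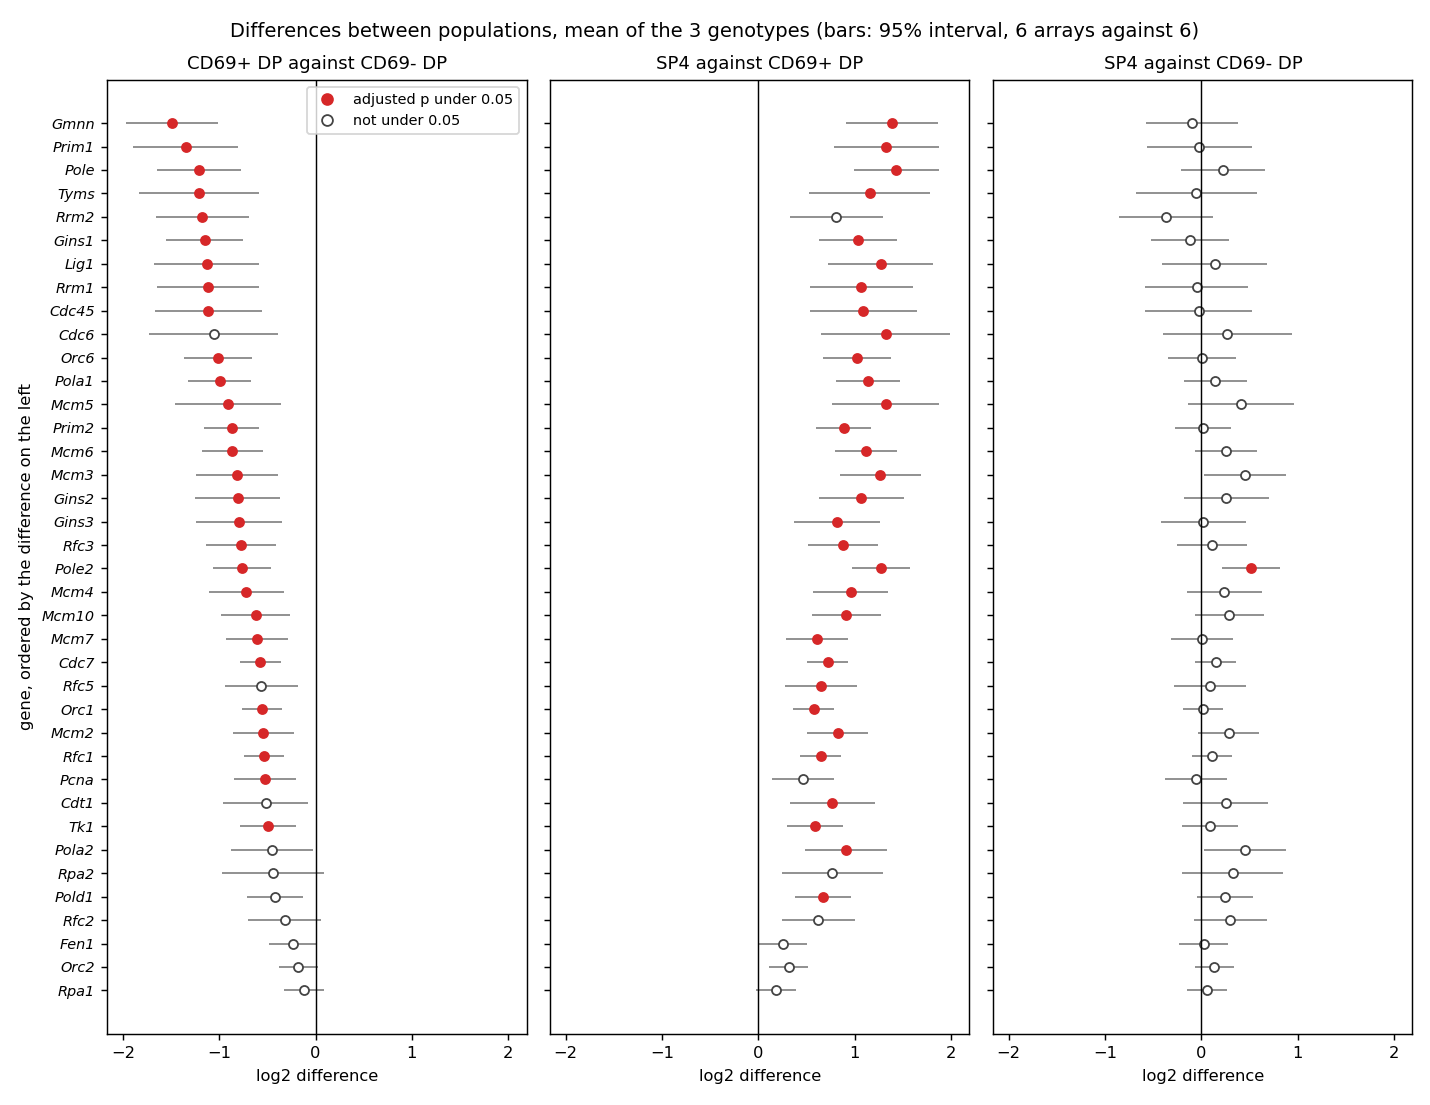
Log2 difference of each of the 38 members with its 95% interval for 3 comparisons of populations, 6 arrays against 6 and genotypes averaged; filled red points passed an adjusted p of 0.05 (28 on the left, 31 in the middle, 1 on the right) and open points did not. Genes are ordered by the left panel, and the right panel, SP4 against CD69- DP, lies around 0.

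The array with the highest level among CD69+ DP cells was the same for most members. *Gli3*+/- replicate 2 was the highest of the 6 CD69+ DP arrays for 34 of 38 members, and its median centred level, the median over members of log2 intensity minus each gene's mean over 18 arrays, was -0.02. The other 5 CD69+ DP arrays had medians from -0.87 to -0.33, CD69- DP arrays from -0.11 to 0.45, and SP4 arrays from 0.08 to 0.62. *Gli3*-/- replicate 1 was the lowest CD69- DP array for 32 members and the lowest SP4 array for 24, and *Gli3*-/- replicate 2 was the highest SP4 array for 24. Without *Gli3*+/- replicate 2 of CD69+ DP, the members' median log2 difference was -0.89 into CD69+ DP and 1.05 into SP4.

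The replicate number moved with the members. With the number as a term in the fit, arrays numbered 2 were higher than arrays numbered 1 for all 38 members, with a median of 0.43, and 32 rose (7.56% of all genes did). The largest difference was that of *Cdc6* (0.81, adjusted p = 9.52e-04) and the smallest that of *Orc1* (0.03, adjusted p = 0.878). The median was 0.37 in CD69- DP, 0.60 in CD69+ DP and 0.30 in SP4. Genes of the immediate early response, which respond to cell handling, were also higher in number 2, with 8 of 10 rising, among them *Jun* (2.59, adjusted p = 1.15e-07) and *Fos* (2.29, adjusted p = 3.06e-06). All 13 mitosis markers measured rose too, with a median of 0.72. The labels do not say what the number stands for, and the part of cell handling in the members' difference was not tested.

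Within each number the order of the populations was the same. Among arrays numbered 1 the median difference from CD69- DP to CD69+ DP was -0.86 (37 of 38 lower, the exception being *Orc2* at 0.03), and among those numbered 2 it was -0.60 (38 of 38 lower). From CD69+ DP to SP4 the medians were 0.98 and 0.77, with 38 of 38 higher in both. From CD69- DP to SP4 they were 0.13 and 0.14. With the number as a block, 34 members fell into CD69+ DP (7.37% of all genes) and 36 rose into SP4 (7.66%). In that fit, leaving out each array in turn gave medians of -0.83 to -0.68 into CD69+ DP and 0.83 to 0.99 into SP4.

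Between SP4 and CD69- DP the count of calls depended on the fit, and the part of pairing in that was not tested. With the replicate number as a block 4 members were higher in SP4 (*Mcm3*, *Pola2*, *Pold1* and *Pole2*), where 7.91% of all genes were. With the source label (genotype and number) as a block 9 were, adding *Mcm2*, *Mcm4*, *Mcm5*, *Rfc2* and *Rpa2*, where 8.74% of all genes were. The fit with the source label also held each population difference the same in all genotypes, so it differed in more than the block. In that last fit *Mcm3* rose by 0.45 (SE 0.09, adjusted p = 0.00119) and *Mcm5* by 0.41 (SE 0.11, adjusted p = 0.0117). The members' share was below that of all genes without a block (1 of 38), near it with the number (4 of 38) and above it with the source label (9 of 38). Without a block, the 95% intervals of all 38 members lay within 1 on the log2 scale of no difference, a factor of 2 either way, and those of 15 lay within 0.5. Nothing in these intervals shows that the populations had equal levels.

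The fall and the rise were then read in each genotype, with 2 arrays against 2. In WT the median fall into CD69+ DP was -0.79, in *Gli3*+/- -0.66 and in *Gli3*-/- -0.68, with all 38 members lower in each. Members that passed numbered 2 in WT (*Gmnn* and *Prim2*; 0.203% of all genes fell), 0 in *Gli3*+/- (0.018%) and 0 in *Gli3*-/- (0.0406%). At an unadjusted p under 0.05, 26, 20 and 25 were lower, but the share of all genes was not taken at that threshold. Blocking on the number gave falls of 25, 15 and 21 members (2.26%, 0.987% and 1.71% of all genes). The rise into SP4 had medians of 0.94, 0.80 and 0.94, with all 38 members higher in WT and *Gli3*-/- and 37 in *Gli3*+/-. In WT 3 members passed (*Mcm6*, *Pola1* and *Pole2*; 0.437% of all genes rose), in *Gli3*+/- 0 (0.0586%) and in *Gli3*-/- 1 (*Pole2*; 0.135%), and 27, 19 and 31 did with the block (2.27%, 0.649% and 2.01%). Without the block, leaving out any WT array of a comparison lowered the WT count there. The share of all genes was not taken with an array left out.

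Whether these changes differed between *Gli3*-/- and WT was tested as an interaction. No member passed for any pair of populations by limma, 0 had an unadjusted p under 0.05, and the smallest adjusted p was 1 (0.923 in the blocked fit). Of all genes, 0% passed in each. The median difference of the fall was 0.08 and of the rise 0.01, and the 95% intervals of single members reached from -1.47 to 1.95 for the fall and from -1.76 to 1.55 for the rise. Intervals of that width allow members to differ by more than 2-fold between the genotypes.

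The main question of the series is what *Gli3* deficiency changes in each population, and the replication genes showed no difference that passed. In CD69- DP the mean of 34 of 38 members was lower in *Gli3*-/- than in WT, with a median log2 difference of -0.10. Of all genes, 52.3% were lower. The members' median centred levels on replicates 1 and 2 were 0.135 and 0.325 in WT, and -0.109 and 0.293 in *Gli3*-/-. That *Gli3*-/- replicate 1 was the lowest CD69- DP array for 32 members. In CD69+ DP the median was -0.02 and in SP4 it was -0.0048, with 22 and 20 of 38 lower. Of the members, 0 passed in each population by limma and 0 had an unadjusted p below 0.05, where 0.0135% of all genes passed in CD69- DP, 0.00902% in CD69+ DP and 0.0135% in SP4. A block for the replicate number also gave 0 members, where 0.0135%, 0.0135% and 0.0225% of all genes passed. The smallest adjusted p of any member in any genotype comparison was 0.994 without the block and 0.683 with it. The standard errors of single members ran from 0.16 to 0.54, and 27 to 30 of the 38 intervals lay within 1 on the log2 scale of no difference.

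None of the members with the largest *Gli3*-/- differences passed the test. In CD69- DP, *Rfc2*, a clamp loader subunit, read 251 and 281 on the WT arrays and 185 and 223 on the *Gli3*-/- arrays, which do not overlap (-0.39, 95% interval -1.04 to 0.27, adjusted p = 1). *Gins1* read 305 and 406 in WT and 225 and 391 in *Gli3*-/- (-0.25, adjusted p = 1). *Mcm3* read 418 and 527 in WT and 350 and 466 in *Gli3*-/- (-0.22, adjusted p = 1). For *Gins1* and *Mcm3*, the *Gli3*-/- arrays straddled the lower WT array. Arrays of the 2 genotypes did not overlap for 2 members in CD69- DP (*Rfc2* and *Prim2*, lower in *Gli3*-/-), where 14.6% of all genes were lower without overlap.

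In CD69+ DP, *Gins2* read 153 and 196 in WT and 97.6 and 177 in *Gli3*-/- (-0.40, adjusted p = 1). *Prim2*, the large subunit of primase, read 112 and 143 in WT and 136 and 200 in *Gli3*-/- (0.38, 95% interval -0.11 to 0.88, adjusted p = 1). *Gmnn* read 140 and 185 in WT and 170 and 258 in *Gli3*-/- (0.38, adjusted p = 1). The arrays of the genotypes overlapped for all 3. The 1 member without overlap was *Orc1*, which was lower in *Gli3*-/- (14.6% of all genes were).

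In SP4, *Gmnn* read 401 and 543 in WT and 514 and 622 in *Gli3*-/- (0.28, adjusted p = 0.996). *Pold1* read 336 and 454 in WT and 282 and 387 in *Gli3*-/- (-0.24, adjusted p = 0.994). *Mcm3* read 674 and 660 in WT and 472 and 680 in *Gli3*-/- (-0.24, adjusted p = 0.998). The low *Gli3*-/- value was that of replicate 1 for *Pold1* and *Mcm3*. The 1 member without overlap was *Rrm2*, which was higher in *Gli3*-/- (12.5% of all genes were).

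*Gli3*+/- cells differed from WT by medians of 0.02 in CD69- DP, 0.16 in CD69+ DP and -0.02 in SP4. In CD69+ DP 34 of 38 members had a higher and 4 a lower mean, where 50.9% of all genes were lower. The members' median centred levels there on replicates 1 and 2 were -0.766 and -0.373 in WT, and -0.868 and -0.016 in *Gli3*+/-. Only replicate 2 of *Gli3*+/- thus lay above its WT counterpart. The largest difference was that of *Gmnn* (0.62, 95% interval -0.20 to 1.45, adjusted p = 1). Its *Gli3*+/- arrays read 157 and 390 against 140 and 185 in WT, so that replicate 1 lay within the WT range and replicate 2 far above it. Arrays did not overlap for *Cdc7*, *Prim2* and *Fen1*, which were higher in *Gli3*+/- (12.2% of all genes were). In SP4 *Cdc7* and *Rrm2* were higher (16%) and *Mcm7* and *Pole2* lower (16.3%) without overlap. None passed in any population by limma, with 0 at an unadjusted p under 0.05, and 0% of all genes passed in each. *Gli3*-/- against *Gli3*+/- gave medians of -0.13, -0.17 and 0.01, again with 0 members called by limma and 0 at an unadjusted p under 0.05, where 0.00451% of all genes passed in each population.

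**Figure D4:**
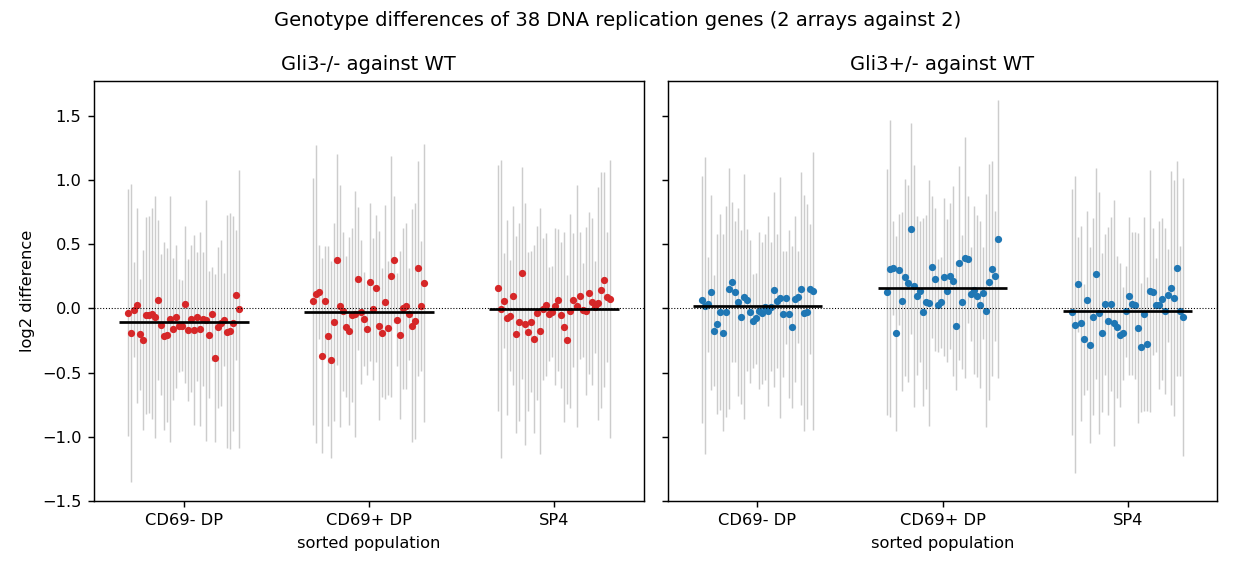
Log2 difference of the 38 members from WT in each population, Gli3-/- on the left and Gli3+/- on the right, with 95% intervals in grey and the median as a black bar. Each comparison is 2 arrays against 2, every interval crosses 0, and the medians lie between -0.10 and 0.16.

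A second list of 42 replication genes that are not members, of which 39 were measured, moved in the same direction for most. Into CD69+ DP 21 fell (4.73% of all genes did) and 1 rose, and into SP4 25 rose (4.41% of all genes did) and none fell. The largest falls were those of *Ticrr*, which brings *Cdc45* to origins (-1.30, adjusted p = 0.00664), *Chaf1a*, which places histones on new DNA (-1.26, adjusted p = 0.0125), and *Tipin*, of the fork protection complex (-1.24, adjusted p = 8.99e-04). The gene that rose was *Samhd1*, which degrades deoxynucleotides. Its lowest, median and highest intensities were 53.0, 55.6 and 74.1 in CD69- DP, 128, 198 and 246 in CD69+ DP, and 678, 1216 and 1650 in SP4, with no overlap. It rose by 1.69 (adjusted p = 2.27e-04) and again by 2.65 (adjusted p = 1.26e-05). From CD69- DP to SP4, 4 of the 39 rose (5.94% of all genes did): *Samhd1*, *Shmt1*, *Mcmbp* and *Pold2*.

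E2F, DP and pocket protein genes, with partners such as *Foxm1*, numbered 17. Of these 9 fell into CD69+ DP (4.73% of all genes did), and 8 rose (4.41% of all genes did) and 1 fell into SP4. *E2f8*, a repressor of the family, fell by 1.48 (adjusted p = 0.0167), and *E2f2*, an activator, by 1.06 (adjusted p = 0.0134). *E2f3*, another activator, read 166 to 173 in CD69- DP and 231 to 303 in SP4, a rise of 0.62 (adjusted p = 0.00133), and *Rbl2*, the pocket protein of resting cells, was the gene that fell into SP4 (-0.39, adjusted p = 0.0239).

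Mitosis markers, 13 of 14 of which were measured, had their lowest level in CD69+ DP as well. All 13 had a lower mean in CD69+ DP than in CD69- DP (median -1.26). Of these 12 fell (4.73% of all genes did), among them *Bub1* (-1.59, adjusted p = 0.00484) and *Cdk1* (-1.41, adjusted p = 0.00755). Into SP4 the median was 0.88 and 1 rose, *Bub1* (adjusted p = 0.0444), where 4.41% of all genes rose. With the replicate number as a block 13 rose, where 7.66% of all genes did. Between SP4 and CD69- DP all 13 had a lower mean (median -0.44), with 0 called, 0 at an unadjusted p under 0.05 and 3 lower with the block, while 30 of the 38 members had a higher mean. Setting the members' median level against that of the mitosis markers on each array gave -0.50 to -0.31 in CD69- DP and 0.11 to 0.42 in SP4, ranges that did not overlap. In CD69+ DP it gave -0.32 to 0.61 and split by number, with 0.504 to 0.605 on replicate 1 arrays and -0.319 to -0.147 on replicate 2 arrays. The difference between the 2 lists was not tested.

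**Figure D5:**
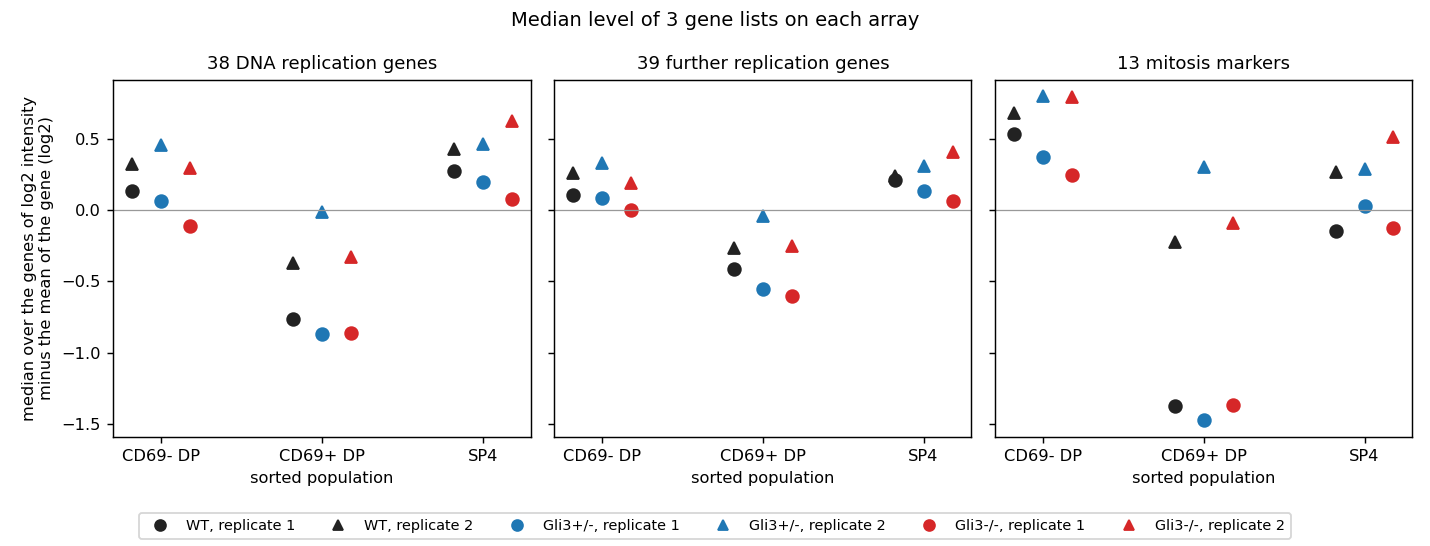
Median over the genes of a list of log2 intensity minus the gene's mean over 18 arrays, for each array, in the 38 members, the 39 further replication genes and the 13 mitosis markers. In all 3 lists triangles (replicate 2) lie above circles (replicate 1) of the same genotype and population. CD69+ DP arrays are all lowest in the further replication genes, while replicate 2 of Gli3+/- in the members and replicates 2 of Gli3+/- and Gli3-/- in the mitosis markers reach into the range of another population. In the mitosis markers SP4 arrays run from -0.15 to 0.51 and CD69- DP arrays from 0.25 to 0.80.

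Markers of the sort and of other cells moved with the populations. *Cd69* rose by 2.78 (adjusted p = 3.04e-05) from CD69- to CD69+ DP. *Cd8a*, which SP4 cells should lose, was lower in SP4 than in CD69- DP by 1.08 on the log2 scale (adjusted p = 1.21e-04), with arrays from 1120 to 2689 against 3822 to 4483. Genes of neutrophils and myeloid cells were higher in SP4 than in CD69- DP for 9 of 11, with a summed intensity of 1025 to 2796 against 513 to 560, and *S100a8* rose by 4.30 (adjusted p = 4.44e-05). Of 6 genes of early, double negative thymocytes, which include dividing cells, 3 rose from CD69- DP to SP4: *Il2ra* (0.57, adjusted p = 0.00541), *Kit* (0.48, adjusted p = 0.00969) and *Cd44* (0.61, adjusted p = 0.00635). Markers of B cells and thymic epithelium had 0 of 4 called each, in the same comparison, and 1 of 6 of mesenchyme and endothelium fell. In that comparison 5.94% of all genes rose and 3.84% fell. Of genes of NK and innate cells 2 of 5 rose, and of 7 erythroid genes the 1 measured did not pass. The part of these cells in the members' levels was not tested.

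Other facts of the series bear on the genotype comparisons. *Gli3* itself read 29.4 to 37.1 on WT arrays, 27.6 to 34.0 on *Gli3*+/- arrays and 27.9 to 32.7 on *Gli3*-/- arrays, below the median of the arrays (59.3 to 65.8), so its row does not check the genotype labels. The Y-linked gene *Kdm5d* was lower in *Gli3*-/- than in WT in every population, so the male share of the RNA differed with genotype. The log2 differences were -4.01 in CD69- DP (adjusted p = 0.0219), -4.28 in CD69+ DP (adjusted p = 0.0103) and -3.66 in SP4 (adjusted p = 0.0431). The summed intensity of 4 sex genes (*Xist*, *Eif2s3y*, *Kdm5d* and *Uty*) also differed within WT. In CD69- DP, CD69+ DP and SP4 it was 1635, 1340 and 1095 in WT replicate 1, and 3702, 3655 and 3333 in WT replicate 2. The part of sex in the members' values was not tested. The labels do not say whether arrays that share a source label came from the same fetus or whether replicates are separate fetuses, so the p-values measure only the spread between these samples.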

How the data were processed

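The authors sorted thymocytes from E18.5 WT, *Gli3*+/- and *Gli3*-/- thymus, extracted RNA and hybridised it to Affymetrix Mouse Gene 2.0ST arrays. The deposited table holds intensity on a linear scale for 41345 rows, which the authors normalised with RMA in the oligo package (versions and annotation build not given in the sources used here); 2 arrays a group limit the precision. Log2 was taken here.

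Rows with 1 symbol (23521) were kept, those with several (1820) or none (16004) were left out, and the row with the highest mean stood for a gene, which gave 22180 genes. The means of the 9 groups came from a single limma 3.58.1 model of all 18 arrays (R 4.3.3, lmFit and eBayes, two-sided, 9 residual and 4.734 prior degrees of freedom), with Benjamini-Hochberg adjustment over all genes and calls at 0.05. The code was tested on simulated data.

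Alternatives were the replicate number or the source label (WT1, WT2 and so on) as a block, quantile and cyclic loess normalisation, a filter on dim rows, log2 of intensity plus 16, only the groups compared, the mean of all rows of a gene, a trended prior, the methods' t-test and each array left out (the lone array of a group was then assumed to vary like the other groups). Deviations from the group means of arrays that share a source label correlated at 0.134 to 0.435 in all 9 pairs across populations. Every pair was over 0.1, so numbers were taken to pair samples there. The fit with the source label held each population difference the same in all genotypes, in place of the means of the 9 groups. Arrays that share only the number correlated at 0.078 to 0.434 (18 pairs, other population and genotype) and at 0.245 to 0.549 (9 pairs, same population, other genotype), so the source label was not set apart from the number.

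The members, roles and other lists were chosen with earlier results of these data known. By rule, the text names the members with the largest and smallest difference into CD69+ DP in each role, the 3 with the largest difference into SP4 in each direction, the 3 with the largest *Gli3*-/- difference in each population, any member that passed a genotype test (there were 0) and up to 4 genes of each further list. Other members named with a value, such as *Cdc6*, *Pole2* and *Rrm1*, and *Shmt1*, *Mcmbp*, *Pold2* and *Kdm5d*, were chosen after their values were seen.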

Additional observations from a re-analysis of the deposited data

Results flagged for a closer look

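*Rrm2* in CD69- DP had a low array. *Gli3*-/- replicate 1 read 2516, while the other 5 arrays read 2993 to 3287, and on the log2 scale the gap to the nearest array was 0.649 of the whole range, above Dixon's limit for 6 samples. On the linear scale the ratio was 0.618, which is below that limit. On the log2 scale it was the only such case in 114 sets of 6 arrays (38 members in 3 populations), where chance gives about 1 in 20. The same array was the lowest for 32 of the 38 members in CD69- DP.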

How the results depend on the processing

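The median differences between populations kept their direction under every alternative run. Leaving out each array in turn gave medians of -0.887 to -0.615 into CD69+ DP, 0.762 to 1.05 into SP4 and 0.070 to 0.188 from CD69- DP to SP4. The counts moved more, with 13 to 30 members falling into CD69+ DP. Repeating each omission with the replicate number as a block, a combination chosen after seeing the data, gave 33 to 34 (medians -0.827 to -0.684; into SP4 35 to 37, medians 0.830 to 0.985). Into SP4 21 to 34 rose, and from CD69- DP to SP4 0 to 1. By genotype, the falls ranged from 0 to 1 (WT), 0 to 4 (*Gli3*+/-, 4 without replicate 2 of CD69+ DP) and 0 to 0, and the rises from 0 to 1, 0 to 0 and 0 to 2. Counts of genotype and interaction comparisons were 0 throughout, and that of replicate numbers was 29 to 34.

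From CD69- DP to SP4 the count of 1 became 4 with the replicate block and 9 with the source label as a block. It was 2 (1 higher, 1 lower) with only the groups compared and 2 by the methods' t-test. In those last 2 fits the share of all genes was not taken. The cause of these changes in count was not tested. With the replicate block, the pairing of numbers raised the per genotype falls to 25 (WT), 15 (*Gli3*+/-) and 21 (*Gli3*-/-) and the rises to 27, 19 and 31, and it changed no call of a genotype or interaction comparison. Among single members 3 reversed, each without 1 array: the *Gli3*-/- difference of *Gins1* in CD69- DP ranged from -0.6466 to 0.1538, that of *Gins2* in CD69+ DP from -0.8271 to 0.0291 and that of *Mcm3* in SP4 from -0.4994 to 0.0277 when single arrays were left out, each positive only without *Gli3*-/- replicate 1. Calls of single members into CD69+ DP were lost for *Mcm5* under cyclic loess, the added 16, only the groups compared and the methods' t-test, for *Mcm2* and *Tk1* under the added 16 and that t-test, and for *Tyms* under that t-test. The rise of *Tyms* was lost with only the groups compared and by that t-test. Of 1137 alternatives of single named genes, 1052 kept direction and side of the threshold, 57 lost a call and 25 gained one. With 2 arrays a group, the median 95% interval of a genotype difference reached 0.652 to either side on the log2 scale.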
